A study of Mus musculus with 6 samples.

Results

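Genes for chaperones of the endoplasmic reticulum (ER) and for the unfolded protein response were followed in whole-liver RNA of mice fed a normal diet (ND, 3 libraries) or CDA-HFD for 7 weeks (3 libraries). CDA-HFD is a high-fat feed with defined amino acids and no choline that leads to steatohepatitis (MASH) and later to fibrosis in mice. Members were taken by gene symbol from a list of 43 genes, made up of 6 sensors and transcription factors, 13 chaperones and cofactors, 7 protein disulfide isomerases, 7 genes of the translocon and of signal peptide processing, 2 genes of the COPII coat and 8 genes of ER-associated degradation (ERAD). All 43 were found among the 55254 genes of the deposited table, and all 43 passed the filter on low values (averages under 1 TPM across all 6 libraries were left out). TPM is a read density per base of exon scaled to the same sum in each library, so that levels may also be compared between genes. Both groups were labelled wild type (WT), and the labels name no transgene, drug or batch. The study's methods describe male C57BL/6J mice that were young adults when feeding began. The labels give liver as the source, but describe RNA extraction from sorted cells, and they call the libraries biological replicates.

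Secretory and membrane proteins enter the ER through the Sec61 channel, fold there with the help of chaperones and disulfide isomerases, and leave in COPII vesicles, while chains that fail to fold are returned to the cytosol and degraded (ERAD). When unfolded proteins accumulate, the sensors IRE1 (encoded by *Ern1*), PERK (*Eif2ak3*) and ATF6 signal to the nucleus through spliced XBP1, ATF4 and cleaved ATF6, and chaperone and ERAD genes are induced. Hepatocytes, which secrete most plasma proteins, are rich in ER. TPM of whole genes does not show splicing of *Xbp1*, cleavage of ATF6 or phosphorylation of PERK, and none of these was measured here.

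Reads recovered from the table numbered 13936583 to 15092147 per ND library and 16557732 to 18616542 per CDA-HFD library. Hepatocyte markers were abundant, with 8 genes summing to between 35063 and 35361 TPM in ND and between 27705 and 30222 TPM in CDA-HFD. Summed TPM of 7 macrophage markers lay between 369 and 421 in ND and between 5437 and 5921 in CDA-HFD, with 7 of 7 rising, and 5 of 5 cholangiocyte and 6 of 8 stellate cell and myofibroblast markers rose as well. In bulk tissue, fewer cells of a type and less RNA per cell cannot be told apart. Over the 14730 genes tested, the median log2 fold change of CDA-HFD over ND was 0.32 on log2(TPM + 1), the scale of all fold changes below, which understates changes of low genes. In what follows, "rose" and "fell" mean an adjusted p below 0.05 (limma, two-sided, Benjamini-Hochberg over all genes tested) with a log2 fold change of at least 1 in size.

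Chaperones and their cofactors were far lower in mice fed CDA-HFD, while none of the 6 sensors and transcription factors fell on the TPM scale. Of these 6, *Ern1* fell under both other scalings tried, and *Xbp1* with median-of-ratios scaling. Of the 43 members 15 fell, against 3.79% of all genes tested, and 1 rose, against 21.1% of all genes. The genes that fell were 10 of the 13 chaperones and cofactors, 2 of the 7 disulfide isomerases, 2 of the 8 ERAD genes and 1 of the 2 COPII genes. With no fold limit, 34 members were lower at an adjusted p below 0.05, where 14.4% of all genes were, and 1 was higher, where 51.6% of all genes were. The 3 CDA-HFD libraries all lay below the 3 ND libraries for 35 members, compared with 16.1% of all genes, and all above them for 1 member, compared with 54.9%. The members' median log2 fold change was −0.86, and 42 of 43 members lay below the median of all genes tested, the exception being *Eif2ak3*. The per-library levels separate the diets most widely among chaperones and in *Derl3*.

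**Figure D1:**
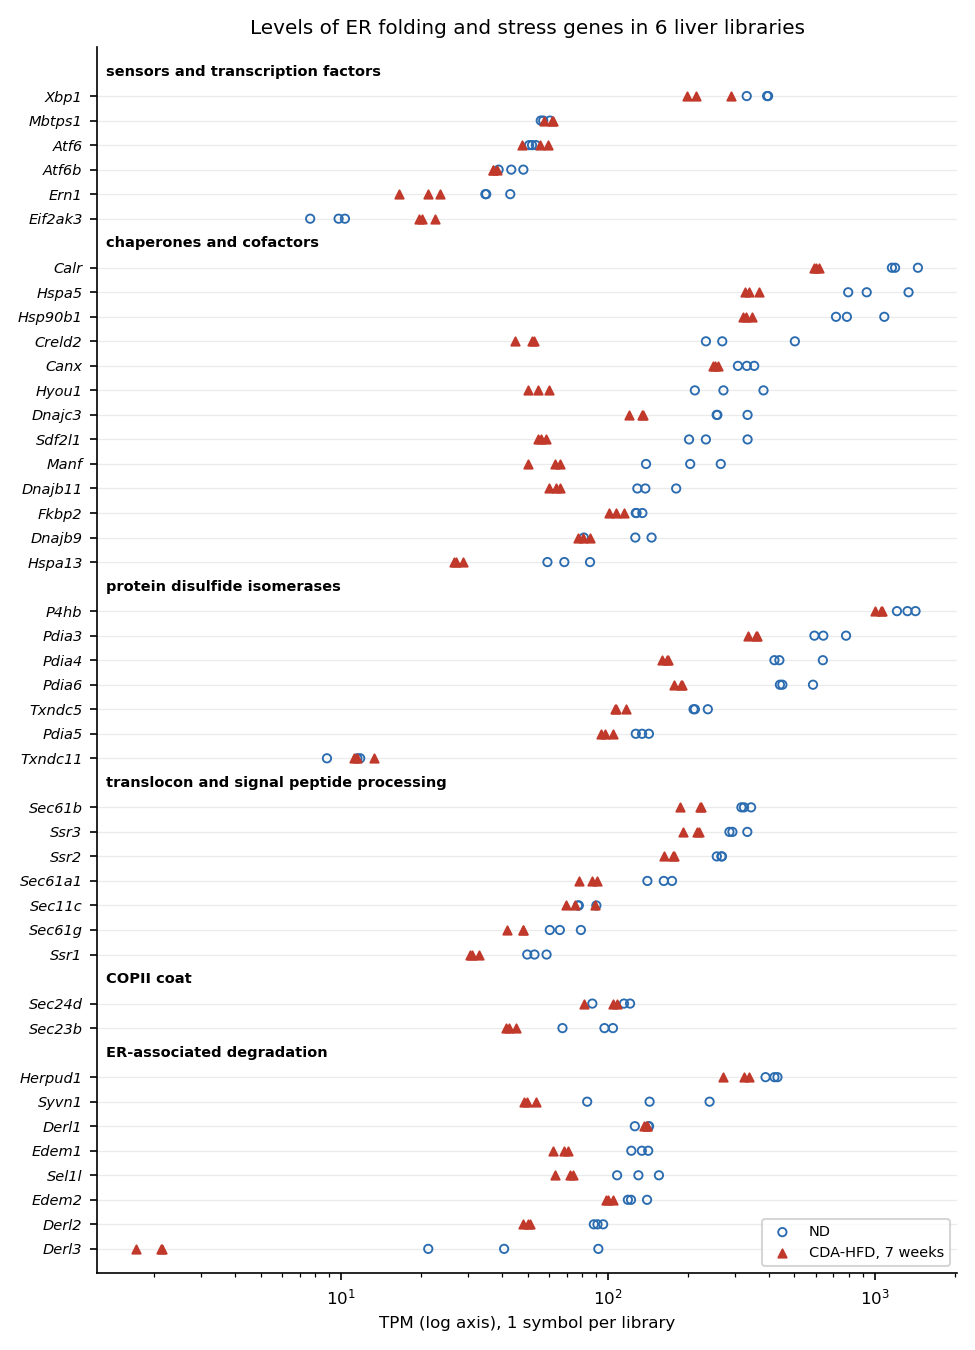
TPM (log axis) of the 43 members in each of the 6 liver libraries, grouped by role, with open circles for ND and filled triangles for CDA-HFD. For 35 members the 3 triangles lie to the left of the 3 circles, and for *Eif2ak3* they lie to the right.

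The DNA around the RefSeq starts of these genes was read for 3 known elements, shown here because matches to them were frequent among the members that fell. The ER stress response element (ERSE) is bound by ATF6 together with NF-Y and was searched as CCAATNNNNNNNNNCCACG, ERSE-II as ATTGGNCCACG and the XBP1-bound unfolded protein response element (UPRE) as TGACGTGG, each on both strands, in RefSeq promoter windows of 250 bases before to 50 after a gene's start (GRCm38.p6). Of the 43 members 35 were in the promoter table. An ERSE stood in 9 of these 35 (25.7%), namely *Hspa5*, *Hsp90b1*, *Calr*, *Canx*, *Dnajc3*, *Creld2*, *Pdia6*, *Syvn1* and *Derl3*, compared with 37 of 27025 genes (0.137%) and 39 of 32851 windows (0.119%) in the whole table. The 6 members with a match and the largest change are printed 5′ to 3′ on the strand of the gene, with 15 bases on either side and the element in capitals, which reads CGTGG first where it lies on the opposite strand.
*Derl3* (chr10:75893227-75893275, plus strand): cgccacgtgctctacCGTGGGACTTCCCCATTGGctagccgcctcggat
*Creld2* (chr15:88819505-88819553, plus strand): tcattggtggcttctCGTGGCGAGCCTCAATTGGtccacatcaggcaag
*Hspa5* (chr2:34772010-34772058, plus strand): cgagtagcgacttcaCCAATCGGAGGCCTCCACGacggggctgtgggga
*Syvn1* (chr19:6046517-6046565, plus strand): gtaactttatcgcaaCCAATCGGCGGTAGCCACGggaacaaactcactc
*Pdia6* (chr12:17266476-17266524, plus strand): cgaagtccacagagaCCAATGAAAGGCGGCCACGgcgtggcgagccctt
*Hsp90b1* (chr10:86705518-86705671, minus strand): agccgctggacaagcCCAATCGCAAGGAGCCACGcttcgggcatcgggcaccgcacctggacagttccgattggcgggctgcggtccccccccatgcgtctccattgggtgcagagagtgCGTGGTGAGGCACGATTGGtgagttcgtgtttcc

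*Hsp90b1* held 2 ERSE matches, 1 on each strand, and the other 5 printed members held 1 each. Counted from the RefSeq start of the gene, the element began at −44 in *Syvn1*, −65 in *Hspa5*, −98 in *Pdia6*, −126 in *Creld2* and −156 in *Derl3*. In *Hsp90b1* the elements began at −212 and −107. Gene coordinates given below are those of GENCODE M21 and can start elsewhere. The *Hspa5* element lies inside its GENCODE interval, which starts further upstream. Of the 9 members with an ERSE 8 fell, with a median log2 fold change of −1.40. Calnexin, *Canx*, was the ninth, at −0.39 ± 0.06. Among the 26 members in the table without an ERSE 4 fell, with a median of −0.60. Without an ERSE means here that the exact letters searched were absent from the window. *Hyou1*, *Manf* and *Hspa13*, which also fell, were not in the promoter table and enter neither group.

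Genes outside the list that held an ERSE were few. Of 28 other genes with an ERSE in the window 9 were tested, and their median log2 fold change was 0.17. Of these 9 genes 0 fell and 3 rose, where 3.79% and 21.1% of all genes tested did. With 9 genes, these counts cannot be told apart from those shares. Those that rose were *Acnat2*, *Adcy3* and *Spats2l*, which are named because of their values. ERSE-II matched in *Dnajb11* and *Herpud1*, and UPRE in *Txndc5*, *Txndc11* and *Sec24d*, so that 14 of the 35 members (40.0%) had any match, compared with 0.884% of all genes. A match describes letters in the window and does not show that a factor was bound, and the difference between the groups was not tested. Known elements of this response were searched in genes listed for it, so the members' share of matches was not independent of the list. The elements are shown for their matches, and the counts are descriptive only.

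**Figure D2:**
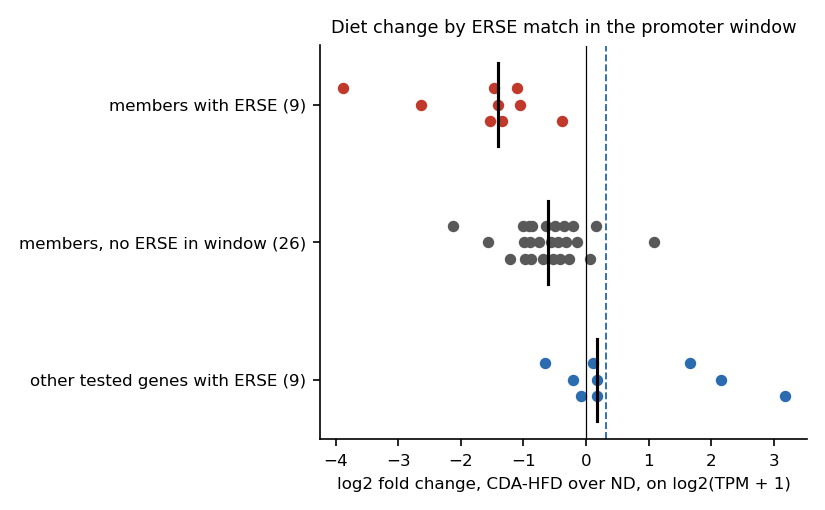
Log2 fold change from ND to CDA-HFD, on log2(TPM + 1), for the 9 members with an ERSE match in the promoter window, the 26 members in the promoter table without one, and the 9 tested genes outside the list that hold one. Each point is a gene, black bars are medians (−1.40, −0.60 and 0.17), and the dashed line is the median of all genes tested (0.32).

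Among the sensors and transcription factors 0 of 6 fell and 1 rose. *Eif2ak3* (chr6:70844515-70905245), which encodes the sensor kinase PERK, was at 7.66, 10.3 and 9.79 TPM in ND and at 22.5, 20.1 and 19.6 TPM in CDA-HFD. Every CDA-HFD library lay above every ND library, and the gene went from the lowest mean TPM of the 43 members in ND to the 40th in CDA-HFD. Its log2 fold change was 1.09 ± 0.12 (SE, adjusted p = 9.69e-05), higher than in 80.3% of all genes tested. The call was close to the fold limit and ended under quantile normalization (0.57), under median-of-ratios scaling (0.75) and without ND replicate 1 (0.97).

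*Ern1*, the gene of the kinase and RNase IRE1, was at 43.1, 35.0 and 34.7 TPM in ND and at 23.6, 21.2 and 16.4 TPM in CDA-HFD (log2 fold change −0.86 ± 0.14, adjusted p = 0.000972). *Xbp1*, whose mRNA is the substrate of IRE1, was at 331, 398 and 395 TPM and at 198, 289 and 214 TPM (−0.69 ± 0.14, adjusted p = 0.00303). Neither gene overlapped between the diets, and neither reached the fold limit on the TPM scale. Both passed it with median-of-ratios scaling (−1.21 and −1.06), and *Ern1* also with quantile normalization (−1.24). Within each library, *Eif2ak3* stood at 17.8%, 29.6% and 28.2% of the TPM of *Ern1* in ND and at 95.3%, 94.7% and 119% in CDA-HFD, a ratio that no scaling of a library alters.

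None of the 3 members of the ATF6 arm reached an adjusted p below 0.05 on the TPM scale, and that changed with scaling. *Atf6* averaged 52.1 ± 1.53 TPM on ND and 54.4 ± 6.16 TPM on CDA-HFD (means ± SD, n = 3 libraries), its relative *Atf6b* at 43.5 ± 4.63 and 37.6 ± 0.765 TPM, and *Mbtps1*, the site-1 protease that cleaves ATF6 in the Golgi, at 58.0 ± 2.39 and 60.6 ± 2.41 TPM. Adjusted p-values from limma were 0.608, 0.0701 and 0.415. The libraries of *Atf6* and *Mbtps1* overlapped, and those of *Atf6b* did not. *Atf6* and *Mbtps1* had log2 fold changes of 0.06 on the TPM scale and turned negative, both to −0.30, with median-of-ratios scaling. There all 3 genes were lower at an adjusted p below 0.05 (limma, 0.0107, 0.00135 and 0.00287), *Atf6b* at −0.56. *Atf6b* was also lower with quantile normalization (−0.50, adjusted p = 0.00159), with voom (−0.26, adjusted p = 0.0328) and without ND replicate 1 (−0.28, adjusted p = 0.0195), and *Mbtps1* with quantile normalization (−0.18, adjusted p = 0.0402). *Mbtps2*, which is no member and is named because of its values, encodes the site-2 protease that completes the cleavage. It was at 4.61, 4.88 and 5.14 TPM in ND and at 10.7, 8.98 and 7.81 TPM in CDA-HFD (0.78 ± 0.12, adjusted p = 0.000802), short of the fold limit, and at 0.12 with quantile normalization (adjusted p = 0.353).

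Chaperones carried the widest differences in level. *Hspa5* (chr2:34771970-34777547), which encodes BiP, the main Hsp70 chaperone of the ER lumen and a repressor of the sensors, was at 795, 932 and 1338 TPM in ND and at 326, 367 and 336 TPM in CDA-HFD. The lowest ND library was above the highest CDA-HFD library, and the mean was 2.98-fold lower in CDA-HFD (log2 fold change −1.54 ± 0.17, adjusted p = 9.59e-05). Set against albumin in the same library, *Hspa5* came to 5.11%, 6.06% and 8.57% of the TPM of *Alb* in ND and to 2.62%, 2.75% and 2.81% in CDA-HFD. *Hsp90b1* (chr10:86690209-86705509), the ER Hsp90 known as GRP94, followed with 715, 786 and 1085 TPM against 347, 321 and 330 TPM (−1.35 ± 0.14). Exons of *Hsp90b1* share 415 bases (14.7% of its exon length) with *1810014B01Rik* on the other strand, which averaged 2.55 TPM on ND and 5.84 TPM on CDA-HFD.

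Several cofactors of BiP fell, with log2 fold changes on either side of that of *Hspa5*. *Hyou1* (chr9:44379490-44392369), a large Hsp70 relative that exchanges the nucleotide of BiP, was at 212, 271 and 383 TPM in ND and at 50.2, 60.1 and 54.8 TPM in CDA-HFD (−2.33 ± 0.19, adjusted p = 1.82e-05). *Sdf2l1* (chr16:17130138-17132383), a partner of ER J-domain proteins, was at 201, 233 and 334 TPM against 54.6, 56.1 and 58.8 TPM (−2.13 ± 0.16, adjusted p = 1.28e-05). Means of these genes were 5.24-fold and 4.53-fold lower. The J-domain cochaperones *Dnajb11* (ERdj3, chr16:22857845-22879634) and *Dnajc3* (P58IPK, chr14:118937976-118981697) fell less, by 1.21 ± 0.12 and 1.11 ± 0.11 on the log2 scale, from 149 ± 27.4 to 63.3 ± 2.80 TPM and from 282 ± 44.6 to 130 ± 8.42 TPM (SD, n = 3). A further J-domain gene, *Dnajb9* (ERdj4), which recruits BiP to IRE1, was at 81.2, 127 and 146 TPM in ND and at 80.4, 85.9 and 77.0 TPM in CDA-HFD. Its libraries overlapped, since ND replicate 1 lay within the CDA-HFD range, and it missed the threshold on the TPM scale (−0.49 ± 0.19, adjusted p = 0.0502). It was lower at an adjusted p below 0.05 with median-of-ratios scaling (−0.86, adjusted p = 0.00691), quantile normalization (−0.65, adjusted p = 0.0173) and voom (−0.55, adjusted p = 0.02), and without ND replicate 1 (−0.74, adjusted p = 0.000329).

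The widest change among chaperone genes was in *Creld2* (chr15:88819646-88826683), a secreted disulfide isomerase-like protein induced by ER stress. *Creld2* was at 233, 268 and 502 TPM in ND and at 44.9, 52.0 and 53.0 TPM in CDA-HFD (−2.64 ± 0.25, adjusted p = 4.51e-05). It was the member with the 10th highest mean TPM in ND and the 33rd in CDA-HFD. *Manf* (chr9:106838312-106891979), a stress-induced ER protein that is also secreted, was at 139, 203 and 265 TPM against 50.3, 66.2 and 63.4 TPM (−1.70 ± 0.22, adjusted p = 0.00023). *Hspa13* (chr16:75745431-75767104), an Hsp70 relative of microsomes, was at 59.3, 68.6 and 85.7 TPM against 27.0, 28.7 and 26.6 TPM (−1.33 ± 0.13, adjusted p = 4.01e-05). In each of these genes the lowest ND library lay at least as far above the highest CDA-HFD library as the CDA-HFD libraries lay apart.

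The lectin chaperones of the calnexin cycle, which hold glycoproteins while they fold, stood on both sides of the fold limit. *Calr* (calreticulin, chr8:84841850-84846934) was at 1159, 1191 and 1450 TPM in ND and at 601, 590 and 618 TPM in CDA-HFD (−1.06 ± 0.09, adjusted p = 1.64e-05). *Canx* was at 307, 331 and 353 TPM against 259, 251 and 247 TPM (−0.39 ± 0.06, adjusted p = 0.000954) and did not reach the fold limit. *Fkbp2*, a prolyl isomerase of the ER, averaged 130 ± 4.08 TPM on ND and 108 ± 6.81 TPM on CDA-HFD (−0.27 ± 0.06, adjusted p = 0.00684). Neither *Canx* nor *Fkbp2* overlapped between diets.

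Disulfide isomerases, which form and rearrange disulfide bonds, ranged from a log2 fold change of −1.57 to 0.15. *Pdia4* (ERp72, chr6:47796141-47813430) was at 421, 439 and 639 TPM in ND and at 159, 167 and 168 TPM in CDA-HFD (−1.57 ± 0.15, adjusted p = 3.65e-05). *Pdia6* (P5, chr12:17266545-17284770) was at 441, 450 and 587 TPM against 189, 176 and 187 TPM (−1.40 ± 0.11, adjusted p = 1.23e-05). These were the 2 isomerases that fell. *Pdia3* (ERp57), the partner of calnexin and calreticulin, had a log2 fold change of −0.92 ± 0.10, with means of 672 and 352 TPM. *Txndc5* (ERp46) had −0.99 ± 0.07, just short of the limit, with means of 219 and 110 TPM.

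*P4hb*, the gene of protein disulfide isomerase itself and of a subunit of prolyl 4-hydroxylase, did not reach the fold limit. It was at 1210, 1325 and 1420 TPM in ND and at 1060, 1051 and 998 TPM in CDA-HFD (−0.34 ± 0.07, adjusted p = 0.00232), which left it the most abundant member in both diets. *Pdia5* was at 135 ± 7.62 and 98.5 ± 5.10 TPM (−0.45 ± 0.07, adjusted p = 0.000586). *Txndc11*, a membrane-bound thioredoxin domain protein, was low in every library, between 8.86 and 13.3 TPM, and its groups overlapped (0.15 ± 0.13, adjusted p = 0.314). With quantile normalization, its value was −0.42.

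**Figure D3:**
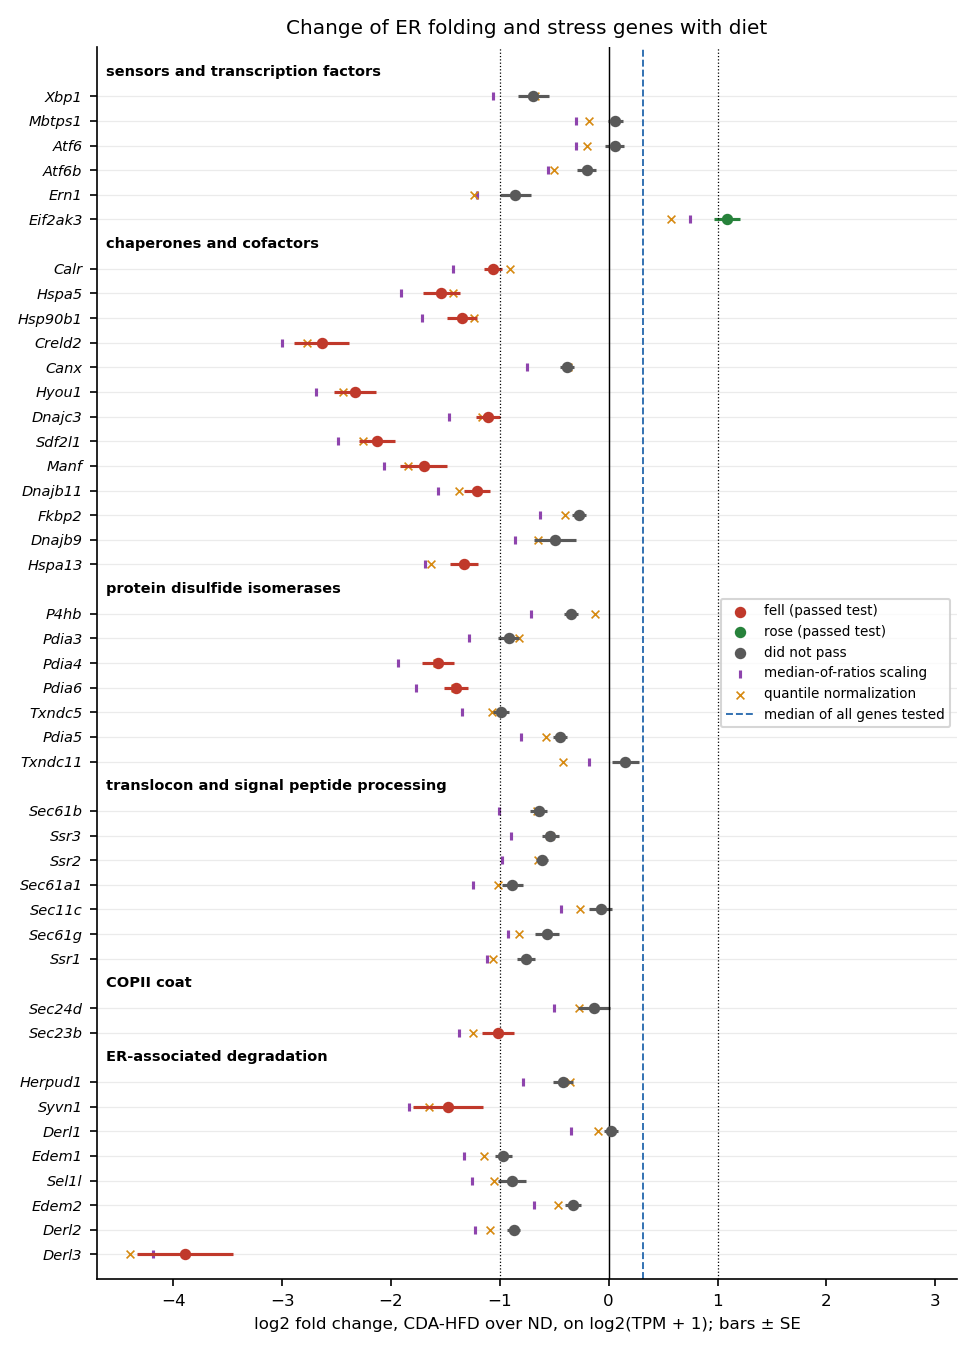
Log2 fold change from ND to CDA-HFD, on log2(TPM + 1), for each member (points, bars ± SE), with the values under median-of-ratios scaling and quantile normalization as small marks, limits of 1 and −1 dotted and the median of all genes tested (0.32) dashed. Of the 43 members 15 fell and *Eif2ak3* rose, and chaperones reach further left than translocon genes.

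The translocon showed smaller differences. Of 7 genes 0 fell on the TPM scale and 6 were lower at an adjusted p below 0.05, with a median log2 fold change of −0.61 over the 7. With median-of-ratios scaling 3 of them fell (*Sec61a1*, *Sec61b* and *Ssr1*, median of the 7 −0.98), and with quantile normalization 2 did (*Sec61a1* and *Ssr1*, median −0.65), compared with medians of −1.69 and −1.37 over the chaperones and cofactors. *Sec61a1*, which encodes the pore of the channel, was at 141, 162 and 174 TPM in ND and at 87.2, 91.1 and 77.9 TPM in CDA-HFD (−0.88 ± 0.09, adjusted p = 7.89e-05). Its small partners in the channel, *Sec61b* and *Sec61g*, had −0.64 ± 0.08 and −0.56 ± 0.11, and the translocon-associated (TRAP) subunits *Ssr1*, *Ssr2* and *Ssr3* −0.76 ± 0.08, −0.61 ± 0.06 and −0.54 ± 0.08. The diets overlapped for none of these 6 genes. *Sec11c*, a catalytic subunit of the signal peptidase, was at 77.2, 77.8 and 90.5 TPM against 69.5, 75.0 and 89.3 TPM, with overlapping groups (−0.07 ± 0.11, adjusted p = 0.562). *Sec61a1* shares 549 bases of exon (17.3%) with *Gm44170* on the other strand, which was listed at 0 in all 6 libraries.

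Both COPII members encode inner coat proteins of vesicles that leave the ER, and 1 of them fell. *Sec23b* (chr2:144556229-144590749) was at 67.6, 97.1 and 104 TPM in ND and at 42.5, 45.2 and 41.6 TPM in CDA-HFD (−1.02 ± 0.15, adjusted p = 0.000523). That value lay just past the limit, and the call ended without ND replicate 2 (−0.95), without ND replicate 3 (−0.89) and without CDA-HFD replicate 3 (−0.99). *Sec24d*, a cargo-binding subunit, was at 87.4, 115 and 121 TPM against 108, 104 and 81.3 TPM, with overlapping groups (−0.14 ± 0.15, adjusted p = 0.434).

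ERAD genes held the largest change of all members. *Derl3* (chr10:75893413-75895941), a derlin of secretory cells, was at 40.8, 21.2 and 92.1 TPM in ND and at 2.13, 1.71 and 2.11 TPM in CDA-HFD, and its mean was 25.9-fold lower (−3.89 ± 0.44, adjusted p = 0.000111). These levels correspond to 333, 187 and 821 reads in ND and to 21, 16 and 23 reads in CDA-HFD. The groups did not overlap, although the ND libraries alone spanned a 4.34-fold range. Only 0.2% of the genes tested had as low a log2 fold change. Its paralog *Derl2* was lower too, but short of the fold limit, averaging 92.0 ± 3.73 TPM on ND and 49.8 ± 1.36 TPM on CDA-HFD (−0.87 ± 0.06, adjusted p = 7.32e-06), and it passed that limit with median-of-ratios scaling (−1.23) and quantile normalization (−1.09). The paralog *Derl1* was at 137 ± 9.27 and 139 ± 1.97 TPM (0.02 ± 0.06, adjusted p = 0.781).

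*Syvn1* (chr19:6046576-6053712), the ubiquitin ligase HRD1 at the core of ERAD, was at 83.6, 143 and 240 TPM in ND and at 48.5, 53.7 and 49.6 TPM in CDA-HFD. All ND libraries were higher, though they spanned a 2.87-fold range (−1.48 ± 0.32, adjusted p = 0.00405). Its adaptor *Sel1l* had a log2 fold change of −0.89 ± 0.13, with means of 131 and 69.7 TPM. The mannosidase-like genes *Edem1* and *Edem2*, which mark misfolded glycoproteins for disposal, had −0.97 ± 0.08 and −0.33 ± 0.08, with means of 133 and 67.2 TPM and of 127 and 101 TPM. *Herpud1*, an ER stress-induced scaffold of the HRD1 complex, was at 389, 421 and 432 TPM against 337, 270 and 323 TPM (−0.42 ± 0.09, adjusted p = 0.00363). Apart from *Derl1*, the 8 ERAD members did not overlap between the diets.

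Summed by role, the lists kept the order of their median log2 fold changes, with chaperones lowest and sensors highest. Chaperones and cofactors summed to 4414, 4933 and 6588 TPM in ND and to 2140, 2179 and 2166 TPM in CDA-HFD, a ratio of means of 0.407. The ratio was 0.59 for disulfide isomerases, 0.636 for ERAD, 0.661 for the translocon, 0.713 for COPII and 0.743 for sensors and transcription factors. For the 8 hepatocyte markers, the same ratio was 0.819. Chaperones came to 12.6% to 18.8% of the summed TPM of those hepatocyte markers in ND and to 7.21% to 7.82% in CDA-HFD, so that they were lower also relative to hepatocyte transcripts of the same library.

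Of the summed TPM of the 43 members, chaperones made up 42.5% to 47.0% in ND and 34.0% to 34.7% in CDA-HFD. The members together took 1.04%, 1.14% and 1.40% of all TPM in ND and 0.629%, 0.639% and 0.624% in CDA-HFD. No library of a diet entered the range of the other in either share.

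**Figure D4:**
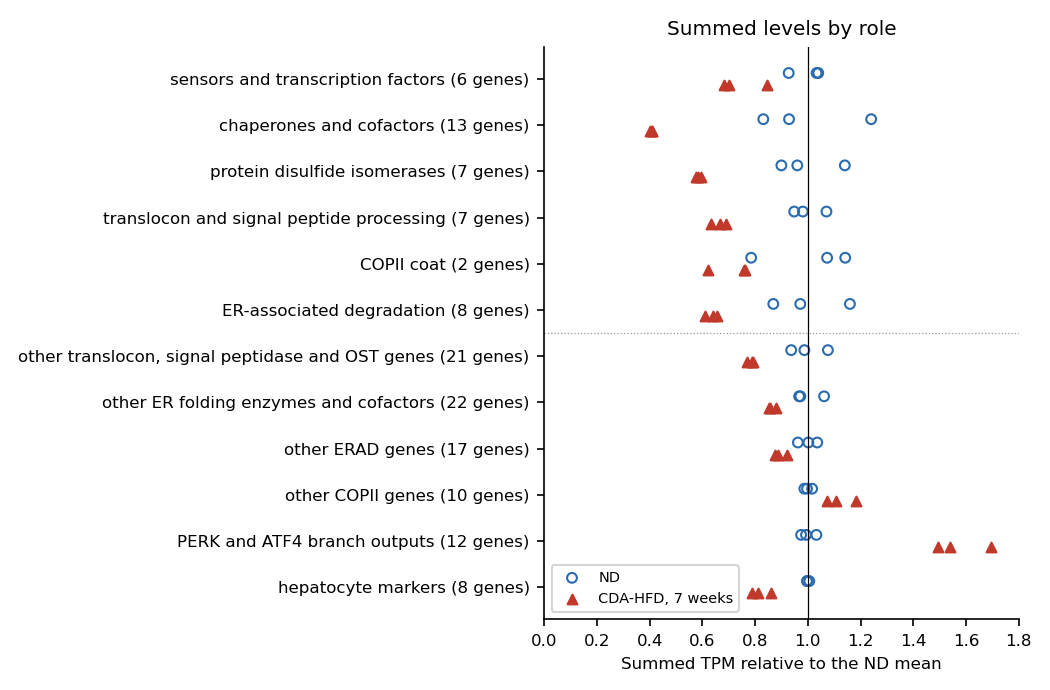
Summed TPM of each gene list divided by its ND mean (x axis, linear from 0), with 1 symbol per library, open circles for ND and triangles for CDA-HFD. Below the dotted line are lists of other ER pathway genes and the hepatocyte markers. Chaperones sit at 0.407 of ND on average, and PERK and ATF4 branch outputs at 1.58.

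The ND libraries differed among themselves in these genes. ND replicate 3 was the highest ND library for 37 of 43 members (86.0%), where it was so for 25.4% of all genes tested, and ND replicate 1 was the lowest for 37 members, where it was so for 29.3% of all genes. For all 15 members that fell, ND replicate 3 was the highest. The coefficient of variation of those 15 genes had a median of 24.2% over ND libraries and of 4.43% over CDA-HFD libraries. For the other 28 members it was 8.47% and 6.46%. Without ND replicate 3, 12 members fell, all of them among the 15, and *Calr*, *Dnajc3* and *Sec23b* were no longer called (−0.96, −0.98 and −0.89). Without ND replicate 1, 19 members fell. Of 14686 genes tested with and without ND replicate 3, 543 fell without it, where 558 of 14730 fell with all 6 libraries. The share of all genes that fell without ND replicate 1 was not counted.

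**Figure D5:**
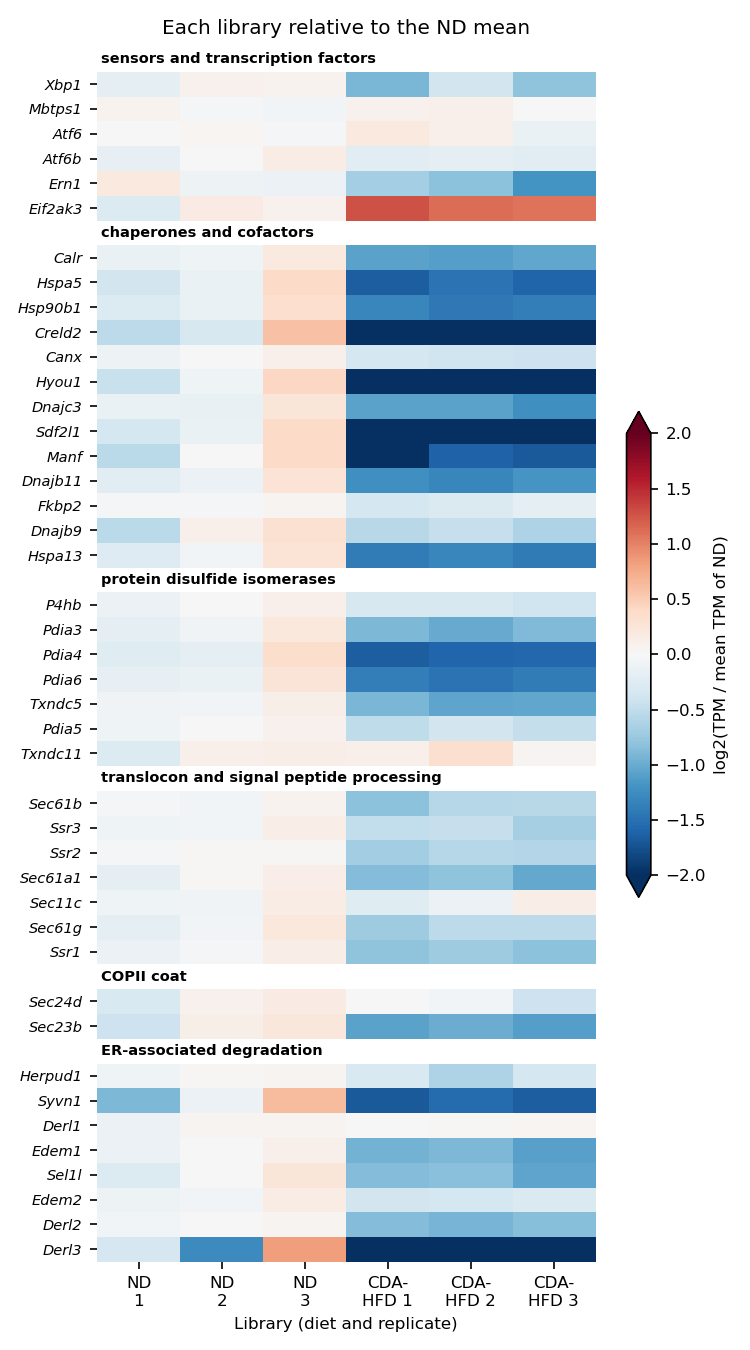
Log2 of each library's TPM over the mean TPM of ND, for the 43 members (rows, grouped by role) in the 6 libraries (columns), with colours saturating at −2 and 2. ND replicate 3 is the reddest ND column and ND replicate 1 the bluest for 37 members each.

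The count of members that fell depended on scaling. Median-of-ratios scaling, which moved the median of all genes to −0.01 and that of the members to −1.21, gave 25 falls and 0 rises. Quantile normalization (−0.11 and −0.91) gave 21 falls and 0 rises. Falls among all 14730 genes tested also became more frequent, from 558 on the TPM scale to 976 and 1201 under these scalings. Rises among all genes went from 3115 to 2359 and 1718. Of the ERAD members 5 fell under either scaling, and of the disulfide isomerases 4 and 3. All 15 genes that fell on the TPM scale also did so with median-of-ratios scaling, and 14 did with quantile normalization, where *Calr* was at −0.91. Over the 17 other settings tried for the fit, 12 members fell in every one. The share of all genes that fell in every setting was not counted. They were *Hspa5*, *Hsp90b1*, *Hyou1*, *Dnajb11*, *Sdf2l1*, *Manf*, *Creld2*, *Hspa13*, *Pdia4*, *Pdia6*, *Syvn1* and *Derl3*.

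Other genes of the same pathways, 97 from lists written by role, were counted in the same fit. These lists, like the members, were chosen with earlier results of these data known, so the counts are descriptive only. Of 96 tested 1 fell and 11 rose, where 3.79% and 21.1% of all genes did, with a median log2 fold change of 0.01. Of these 96 genes 70 lay below the median of all genes tested. Among 22 other folding enzymes *Ero1lb*, an oxidase that recharges disulfide isomerases, fell. It was at 84.9, 80.7 and 115 TPM in ND and at 21.5, 19.3 and 21.6 TPM in CDA-HFD (−2.10 ± 0.13, adjusted p = 4.16e-06). *Fkbp7*, a prolyl isomerase, rose from 12.2, 10.6 and 12.9 TPM to 30.8, 33.9 and 35.7 TPM (1.42 ± 0.10, adjusted p = 6.63e-06), a call that ended with quantile normalization (0.98). Both genes had groups that did not overlap.

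Among 17 other ERAD genes, 21 other genes of the translocon, signal peptidase and oligosaccharyltransferase, and 10 other COPII genes, 0 fell and 0 rose. With no fold limit, 6, 12 and 1 of them were lower at an adjusted p below 0.05 (limma) and 3, 2 and 5 were higher. Of all genes tested, 14.4% were lower and 51.6% higher by that measure. By the mean over all 6 libraries, the most abundant of each list were *Os9*, a lectin of ERAD (322 and 289 TPM, −0.16 ± 0.06), the TRAP subunit *Ssr4* (371 and 314 TPM, −0.24 ± 0.09) and the COPII GTPase gene *Sar1b* (395 and 432 TPM, 0.13 ± 0.05). With median-of-ratios scaling 10 of the 97 genes fell and 8 rose, and with quantile normalization 5 fell and 7 rose. *Sar1b* turned negative with median-of-ratios scaling (−0.24).

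Outputs of the PERK and ATF4 branch were among the genes that rose. Of 12 genes 6 rose, compared with 21.1% of all genes tested, and 0 fell, with a median log2 fold change of 0.93, and their summed TPM went from between 444 and 470 in ND to between 681 and 773 in CDA-HFD. *Atf3*, a stress-induced transcription factor, was at 3.23, 1.67 and 1.65 TPM in ND and at 95.2, 87.9 and 101 TPM in CDA-HFD (4.94 ± 0.18, adjusted p = 2.39e-07). *Nupr1*, a small stress-induced nuclear protein, was at 4.49, 3.62 and 5.36 TPM against 39.7, 31.8 and 41.4 TPM (2.82 ± 0.15, adjusted p = 1.46e-06). In neither gene did the diets come near each other. *Atf4* itself, named after its value was seen, was level at 162 and 163 TPM (0.01 ± 0.06, adjusted p = 0.937), with −0.36 under median-of-ratios scaling. With median-of-ratios scaling 4 of the 12 rose, and with quantile normalization 4 rose and *Chac1*, also named after its value was seen, fell. On the TPM scale *Chac1* had a log2 fold change of −1.47 and was not called. It had 24, 239 and 213 reads in ND and 30, 41 and 50 in CDA-HFD. Macrophage markers rose in the same libraries, and their part in the rises among these 12 genes was not tested.

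Of 14 other regulators tested 4 rose, not far from the 21.1% of all genes tested that did, and 0 fell. *Creb3l1*, an ER-anchored transcription factor linked to collagen secretion, went from 2.30, 2.19 and 1.59 TPM to 18.5, 18.1 and 15.5 TPM (2.60 ± 0.13, adjusted p = 1.17e-06). *Nfya*, a subunit of the NF-Y factor that reads the CCAAT part of the ERSE, went from 9.34, 8.13 and 7.18 TPM to 29.5, 29.8 and 24.8 TPM (1.66 ± 0.12, adjusted p = 7.51e-06). Both kept their call with median-of-ratios scaling (2.31 and 1.32). The other NF-Y subunits, named after their values were seen, did not rise. *Nfyb* was at 47.1, 42.9 and 42.9 TPM in ND and at 29.2, 35.0 and 26.1 TPM in CDA-HFD (−0.55 ± 0.11, adjusted p = 0.00255), with −0.91 under median-of-ratios scaling. *Nfyc* averaged 29.3 and 36.3 TPM (0.30 ± 0.07, adjusted p = 0.00588), with −0.05 under median-of-ratios scaling.

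Cells with much ER other than hepatocytes were looked for with 13 B and plasma cell and 6 pancreatic acinar markers. The B and plasma cell markers summed to between 38.4 and 48.0 TPM in ND and between 112 and 164 TPM in CDA-HFD, and 6 of 7 tested rose. Those that rose were *Jchain*, *Igkc*, *Igha*, *Prdm1*, *Cd79a* and *Cd79b*. Mean TPM went from 1.71 in ND to 7.56 in CDA-HFD for *Jchain* and from 19.2 to 79.1 for *Igkc*. The plasma cell genes *Mzb1* and *Tnfrsf17* of the same list stayed under 0.3 TPM in every library and were not tested. The acinar markers summed to 28.6, 34.5 and 32.8 TPM in ND and to 16.6, 19.7 and 20.7 TPM in CDA-HFD, lower in the same libraries as the members. Nearly all of that sum was the elastase gene *Cela1*, at 27.4, 32.9 and 31.9 TPM against 13.6, 16.6 and 17.4 TPM (−0.92 ± 0.11, adjusted p = 0.000194). *Cela2a* was higher, at 1.19 and 3.15 TPM on average (0.92 ± 0.13, adjusted p = 0.000399). *Pnlip*, *Amy2a5* and *Cpa1*, which define acinar cells, were at 0 in all 6 libraries, and *Ctrb1* was at 0.171 TPM in ND replicate 2 and at 0 in the others. The part of these cells in the members' levels was not tested.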

How the data were processed

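The authors deposited a single table of TPM with 1 column per library, for 3 ND and 3 CDA-HFD livers. The submitters' processing notes list Trimmomatic 0.39.0, HISAT2 2.2.1, featureCounts 2.0.1 and the mm10 build, and the study's methods add the removal of PCR duplicates. Strand use in counting is not stated, so reads of overlapping exons on either strand cannot be assigned to 1 gene. Exons of 12 members overlap another gene, 3 of them over at least 10% of their length.

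The model was fitted to log2(TPM + 1) in limma 3.58.1 (R 4.3.3), with diet as its single term and a trended eBayes prior, and p-values were adjusted by Benjamini-Hochberg across the 14730 genes that averaged 1 TPM or more. The p-values set the difference between the diets against the spread between libraries, pooled over both diets and moderated across genes. Unequal spread between the diets, as seen in the members that fell, was not modelled in this fit. Reads per gene were recovered from TPM and merged exon lengths of GENCODE M21 (53149 genes matched by name), and 98.4% to 98.5% of values were whole within 0.01 reads. They served for read counts and for voom.

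Alternatives were pseudocounts of 0.1 and 0.5, no filter or a minimum of 5 TPM, quantile normalization, median-of-ratios scaling, leaving out the 50 most abundant genes, eBayes without trend or robust, a replicate block, other fold limits, voom, and leaving out each library. Coordinates are those of GENCODE M21, counted from 1, and promoters those of RefSeq (GRCm38.p6). All members are named. Of other ER pathway genes, the text names the 2 largest rises and 2 largest falls that passed in each list, or the most abundant gene where none passed. Members, lists and this rule were chosen with earlier results of these data known. Of the other lists, genes outside this rule are said to be so.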

Additional observations from a re-analysis of the deposited data

How the results depend on the processing

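Values of 43 members were recomputed under 17 settings. A lower pseudocount (0.1 or 0.5), another filter (none, or 5 TPM), eBayes without trend and robust eBayes left the direction and call of all 43 as they were, and scaling changed most. With median-of-ratios scaling 25 members fell, 0 rose, and 10 other ER pathway genes fell. With quantile normalization 0 members rose, and 5 other ER pathway genes fell and 7 rose. Over all genes tested, 976 fell and 2359 rose with median-of-ratios scaling, and 1201 fell and 1718 rose with quantile normalization. With a fold limit of 1.5-fold 26 members fell, and 15 other genes fell and 17 rose. The share of all genes at that limit was not counted. It cannot exceed the 14.4% lower and 51.6% higher with no fold limit. With no fold limit 34 members and 31 other genes were lower and 34 other genes were higher. Of all genes tested, 14.4% were lower and 51.6% higher with no fold limit.

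Leaving out 1 library at a time gave 12 to 19 members that fell and 0 to 1 that rose. With no fold limit, 34 to 36 members were lower and 1 was higher. Among other ER pathway genes there were 1 to 2 falls and 10 to 11 rises. All genes were counted only without ND replicate 3, where 543 of 14686 fell and 3042 rose. With no fold limit, 1903 of these were lower and 6943 higher. No rise of a member was left without ND replicate 1, where 2 other ER pathway genes fell, *Chac1* being added.

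Only genes near 0 changed direction. *Atf6* was at −0.30 with median-of-ratios scaling, at −0.20 after quantile normalization, at −0.0257 without the 50 most abundant genes, and between −0.0142 (without CDA-HFD replicate 1) and 0.1458 (without CDA-HFD replicate 3) as libraries were left out. *Mbtps1* was at −0.30, −0.18 and −0.0184 in the first 3 of these. *Txndc11* was at −0.18 and −0.42 in the first 2. *Derl1* was at −0.34, −0.10 and −0.06 in the first 3, at −0.025 with voom, and between −0.0354 (without ND replicate 1) and 0.0522 as libraries were left out. *Sec11c* lay between −0.1744 and 0.0044 (without CDA-HFD replicate 1) as libraries were left out, and at 0.0001 without ND replicate 3. The causes were not tested.

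Whether replicate numbers pair the libraries could not be decided with 3 libraries per diet. Deviations of same-numbered libraries correlated weakly, at 0.0862, 0.0387 and 0.0893, and each was the best match of its ND library. All other pairs lay between −0.0874 and 0.0053. With the replicate block 15 members fell and 1 rose, as without it, and *Chac1* joined *Ero1lb* to give 2 falls among other ER pathway genes. Depth limits *Derl3* in CDA-HFD, at 16 to 23 reads per library.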
